A study of Mus musculus with 30 samples.

Results

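The 27 sterol biosynthesis genes described here were the rows of the RPE and BMDM tables whose name matched a fixed list of symbols for the mevalonate pathway, sterol synthesis and its control by SREBP. All 27 were found, among 55573 genes in each table, and all 27 passed the filter for testing in both tissues (a mean normalized count of at least 10). Retinal pigment epithelium (RPE) lies behind the photoreceptors and engulfs the tips they shed, and MERTK is a receptor tyrosine kinase it uses to do so. The paper proposes that the related receptor TYRO3 gives redundancy in this. Bone marrow-derived macrophages (BMDMs) also engulf dead cells through MERTK. The question behind the design was which transcripts differ among 3 lines of mice without functional MERTK that were made in different ways.

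The RPE libraries came from mice at postnatal day 25 (P25), 6 of them B6 WT, 6 Mertk-/-V1, and 3 of each of Mertk-/-V2 and Mertk-/-V3 (versions 1, 2 and 3 of the knockout in the labels), and the BMDM libraries from 3 adult mice of each genotype after 7 days in medium conditioned by L929 cells. All 30 libraries were of polyadenylated RNA, and the labels give the strain of every mouse as C57BL/6J (B6). Mertk-/-V1 mice lack exon 17 of Mertk, were made in 129P2 embryonic stem cells, keep a neomycin cassette and, after repeated backcrossing to B6, keep a 129P2 segment of chromosome 2 around the gene. Mertk-/-V2 mice lack exon 18, which was excised in the germline from a floxed allele of C57BL/6NJ origin by a tamoxifen-activated Cre expressed from Rosa26 that was then bred out. Mertk-/-V3 mice lack exons 3 and 4, which were deleted with CRISPR in C57BL/6NJ eggs. By the study's genome-wide SNP typing, the Mertk-/-V2 and Mertk-/-V3 lines still carried C57BL/6NJ genome beside C57BL/6J, with a larger share in Mertk-/-V3. None of the 27 genes lies on chromosome 2: they are spread over 15 chromosomes. RPE cells were shaken off the posterior eyecup, so each RPE library could also hold RNA of the neighbouring retina and choroid.

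Cells make cholesterol from acetyl-CoA through the mevalonate pathway. HMGCS1 makes HMG-CoA, MVK, PMVK and MVD carry mevalonate to isopentenyl pyrophosphate, IDI1 isomerizes it and FDPS joins the units to farnesyl pyrophosphate. FDFT1 and SQLE then make squalene and its epoxide, LSS closes the sterol rings to lanosterol, and CYP51, TM7SF2, LBR, MSMO1, NSDHL, HSD17B7, EBP, SC5D and DHCR7 turn lanosterol into cholesterol. The transcription factor SREBP2, encoded by Srebf2, drives most of these genes. When membrane sterol is low, SCAP escorts SREBP from the endoplasmic reticulum to the Golgi, where it is cut and released; when sterol is high, INSIG1 and INSIG2 hold SCAP back. Photoreceptor outer segments are rich in membrane lipid, so the RPE handles sterol both from its own synthesis and from what it engulfs.

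SREBP acts at promoters through sterol regulatory elements and works there with NF-Y, a factor that binds the CCAAT box. RefSeq promoter windows (250 bases before to 50 after the annotated start, build GRCm38.p6) were found for 23 of the 27 genes. The windows of 4 genes that later separated the Mertk-/-V1 RPE from the other knockouts are shown 5′ to 3′ on the plus strand, with capitals marking every match, on either strand, to TCACNCCAC or to CCAAT, and no match of one overlapped a match of the other. Hmgcs1 (chr13:119690101-119690400) carried 1 match to TCACNCCAC and 4 to CCAAT, Insig1 (chr5:28071162-28071461) 1 to CCAAT, Idi1 (chr13:8885356-8885655) 2 to CCAAT and Lss (chr10:76531355-76531654) 1 to CCAAT.
Hmgcs1: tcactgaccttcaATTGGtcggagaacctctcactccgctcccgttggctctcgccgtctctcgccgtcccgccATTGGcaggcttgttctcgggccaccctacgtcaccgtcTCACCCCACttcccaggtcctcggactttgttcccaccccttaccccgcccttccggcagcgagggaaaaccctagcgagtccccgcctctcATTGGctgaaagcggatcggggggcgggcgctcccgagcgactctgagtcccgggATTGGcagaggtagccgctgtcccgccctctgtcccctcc
Insig1: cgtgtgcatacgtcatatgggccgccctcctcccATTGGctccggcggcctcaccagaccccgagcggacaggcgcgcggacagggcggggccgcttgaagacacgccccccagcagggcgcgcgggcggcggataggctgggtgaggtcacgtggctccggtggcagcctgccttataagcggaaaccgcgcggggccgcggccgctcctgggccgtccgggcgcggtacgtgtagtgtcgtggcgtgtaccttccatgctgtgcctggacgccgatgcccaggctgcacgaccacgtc
Idi1: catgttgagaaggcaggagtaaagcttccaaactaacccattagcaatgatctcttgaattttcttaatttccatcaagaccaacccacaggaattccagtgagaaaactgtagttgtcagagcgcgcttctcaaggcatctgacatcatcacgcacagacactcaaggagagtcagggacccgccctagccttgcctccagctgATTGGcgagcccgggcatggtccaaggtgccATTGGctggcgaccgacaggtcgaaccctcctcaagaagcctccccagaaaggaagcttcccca
Lss: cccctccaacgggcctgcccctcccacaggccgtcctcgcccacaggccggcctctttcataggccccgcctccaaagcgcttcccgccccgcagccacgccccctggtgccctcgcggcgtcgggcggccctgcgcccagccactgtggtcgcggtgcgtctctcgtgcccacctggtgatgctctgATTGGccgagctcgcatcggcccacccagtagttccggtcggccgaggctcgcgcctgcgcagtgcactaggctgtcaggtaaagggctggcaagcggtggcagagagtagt
A CCAAT match was present in 21 of the 23 genes (91.3%), all but Scap and Acat2, and in 41.1% of the 27025 genes with a window. TCACNCCAC was matched in Hmgcs1 alone of the 23 (4.35%), against 1.44% of all genes with a window. A match is a stretch of letters and not a measured binding site.

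Total reads on genes ran from 14137666 to 34124049 per RPE library and from 16629659 to 25653814 per BMDM library. Normalized counts of Mertk in the RPE were 2638 to 3924 in B6 WT (median 3230.1), 919 to 1717 in Mertk-/-V1 (median 1070.5), 5311, 3811 and 3565 in Mertk-/-V2, and 444, 1005 and 1106 in Mertk-/-V3. In BMDMs they were 2414, 2649 and 2881 in B6 WT, 847, 883 and 865 in Mertk-/-V1, 3589, 3532 and 3579 in Mertk-/-V2, and 651, 685 and 723 in Mertk-/-V3. Mertk RNA was thus below every B6 WT library in Mertk-/-V1 and Mertk-/-V3 and not in Mertk-/-V2, where the sum over the gene cannot show the loss of exon 18. All 8 RPE markers, among them Rpe65 and Best1, were present in every RPE library, and all 8 macrophage markers in every BMDM library. The summed normalized count of 8 rod photoreceptor markers was 29962 to 823672 in the RPE libraries and 15.6 to 38.3 in the BMDM libraries. The largest 3 sums in the RPE were 823672 and 483676 in Mertk-/-V1 libraries 5 and 6 and 386886 in Mertk-/-V3 library 1, and the summed RPE markers were lowest in the same 3 libraries, at 244082, 190483 and 276175, against 423142 to 862323 in the other 15.

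RPKM values (reads per kilobase of exon, scaled to the reads of the library) place the 27 genes on a common scale in B6 WT cells. In the RPE, Insig1, the sterol-sensing brake, was the most abundant of the 27 at a median of 58.0 (range 50.1 to 74.9, n = 6), followed by Hmgcs1 at 45.7 (37.4 to 52.9), the squalene synthase gene Fdft1 at 39.9 (28.1 to 45.0) and Srebf2 at 33.0 (28.4 to 36.1). The ranges of neighbours in this order overlapped, so their order is not fixed beyond the spread of the libraries. Srebf1, which encodes the SREBP1 factors better known for fatty acid genes, stood at 25.1 (23.2 to 28.1) and Scap at 18.2 (16.5 to 21.1). At the low end were Lbr, Tm7sf2 and Fdps, with medians of 5.25, 4.43 and 1.44. In BMDMs Insig1 again led at 87.8 (83.6 to 108, n = 3), and Srebf2 followed at 59.2 (58.1 to 59.8) and Tmem97, which encodes a sterol-binding membrane protein, at 47.9 (47.8 to 48.2). Here the ranges of the first 3 did not overlap. Fdps was last in both tissues, and near-identical copies of Fdps in the genome can take part of its reads, so its level is uncertain. As the plot of levels shows, the tissues differed gene by gene; the tables were normalized separately and no test was made between them.

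**Figure D1:**
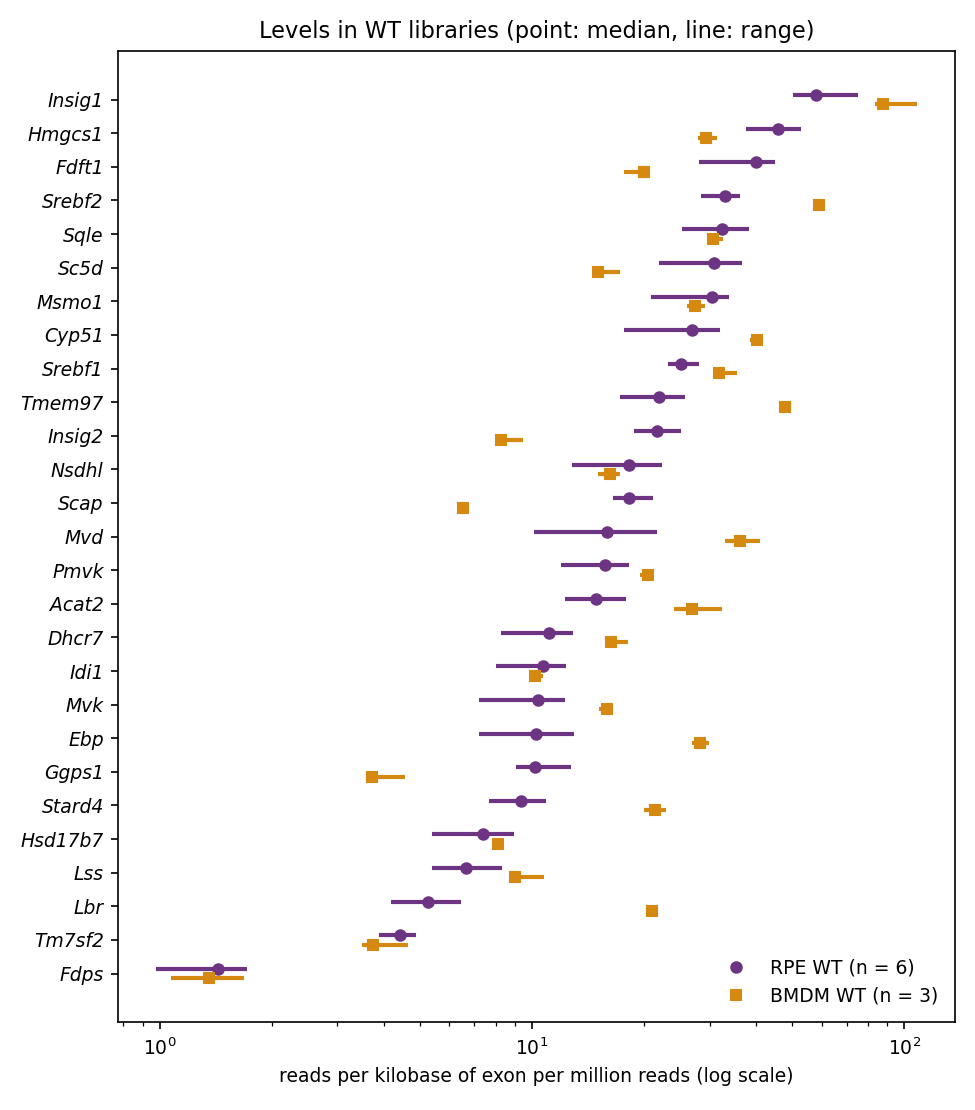
Level of the 27 sterol genes in B6 WT libraries, in RPKM on a log axis. Points are medians and lines the range of 6 RPE libraries (circles) and 3 BMDM libraries (squares). Insig1 is the highest gene in both tissues and Fdps the lowest.

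The clearest difference among the knockouts lay in the RPE, between Mertk-/-V1 and the other knockouts, Mertk-/-V2 and Mertk-/-V3, whose mean it was tested against. The genes Hmgcs1, Idi1, Lss, Insig1 and Stard4 were higher in Mertk-/-V1, by 0.87 to 1.12 on the log2 scale. They stand at the entrance of the pathway (Hmgcs1), at the isoprenoid step (Idi1), at ring closure (Lss), in the feedback brake (Insig1) and in transport of cholesterol between membranes (Stard4). Of the 27 genes, 5 passed the test (limma, adjusted p under 0.05 over 18832 genes) and all 5 were higher, while 0.112% of all genes tested were higher at the same threshold. The log2 fold change was above 0 in 25 of the 27, with a median of 0.67 against 0.01 over all genes tested.

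Hmgcs1 had normalized counts of 6279 to 11378 in the 6 Mertk-/-V1 libraries (median 7629), 4195, 4347 and 4594 in Mertk-/-V2, 4091, 3919 and 3714 in Mertk-/-V3 and 4191 to 6511 in B6 WT (median 5632). The lowest Mertk-/-V1 library was above every Mertk-/-V2 and Mertk-/-V3 library and overlapped only the highest B6 WT library. Its log2 difference from the mean of the other knockouts was 0.96 ± 0.15 (SE, 95% interval 0.64 to 1.28, limma adjusted p = 0.0075).

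Insig1 is a target of SREBP2 as well as its brake. It stood at 4985 to 10149 normalized counts in Mertk-/-V1 (median 6862), 3058, 3457 and 4001 in Mertk-/-V2, 2749, 3005 and 3271 in Mertk-/-V3 and 3743 to 6208 in B6 WT (median 4879). The Mertk-/-V1 libraries did not overlap those of the other knockouts, and the difference was 1.11 ± 0.17 (SE, 0.74 to 1.47, limma adjusted p = 0.0073).

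Idi1 ranged from 963 to 2036 normalized counts in Mertk-/-V1 (median 1506), against 743, 793 and 845 in Mertk-/-V2, 591, 486 and 527 in Mertk-/-V3 and 672 to 1158 in B6 WT (median 1007). Lss ranged from 1961 to 3397 in Mertk-/-V1 (median 2433), against 1247, 1287 and 1508 in Mertk-/-V2, 1400, 1397 and 1331 in Mertk-/-V3 and 1418 to 2406 in B6 WT (median 1899). Stard4, on chromosome 18, ranged from 1373 to 2081 in Mertk-/-V1 (median 1586), against 778, 1046 and 1309 in Mertk-/-V2, 907, 720 and 753 in Mertk-/-V3 and 1045 to 1638 in B6 WT (median 1399). For all 3 genes every Mertk-/-V1 library lay above every library of the other knockouts, by the narrowest margin in Stard4. The log2 differences were 1.12 ± 0.20 for Idi1, 0.88 ± 0.15 for Lss and 0.87 ± 0.15 for Stard4 (SE, limma adjusted p = 0.026, 0.014 and 0.019).

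**Figure D2:**
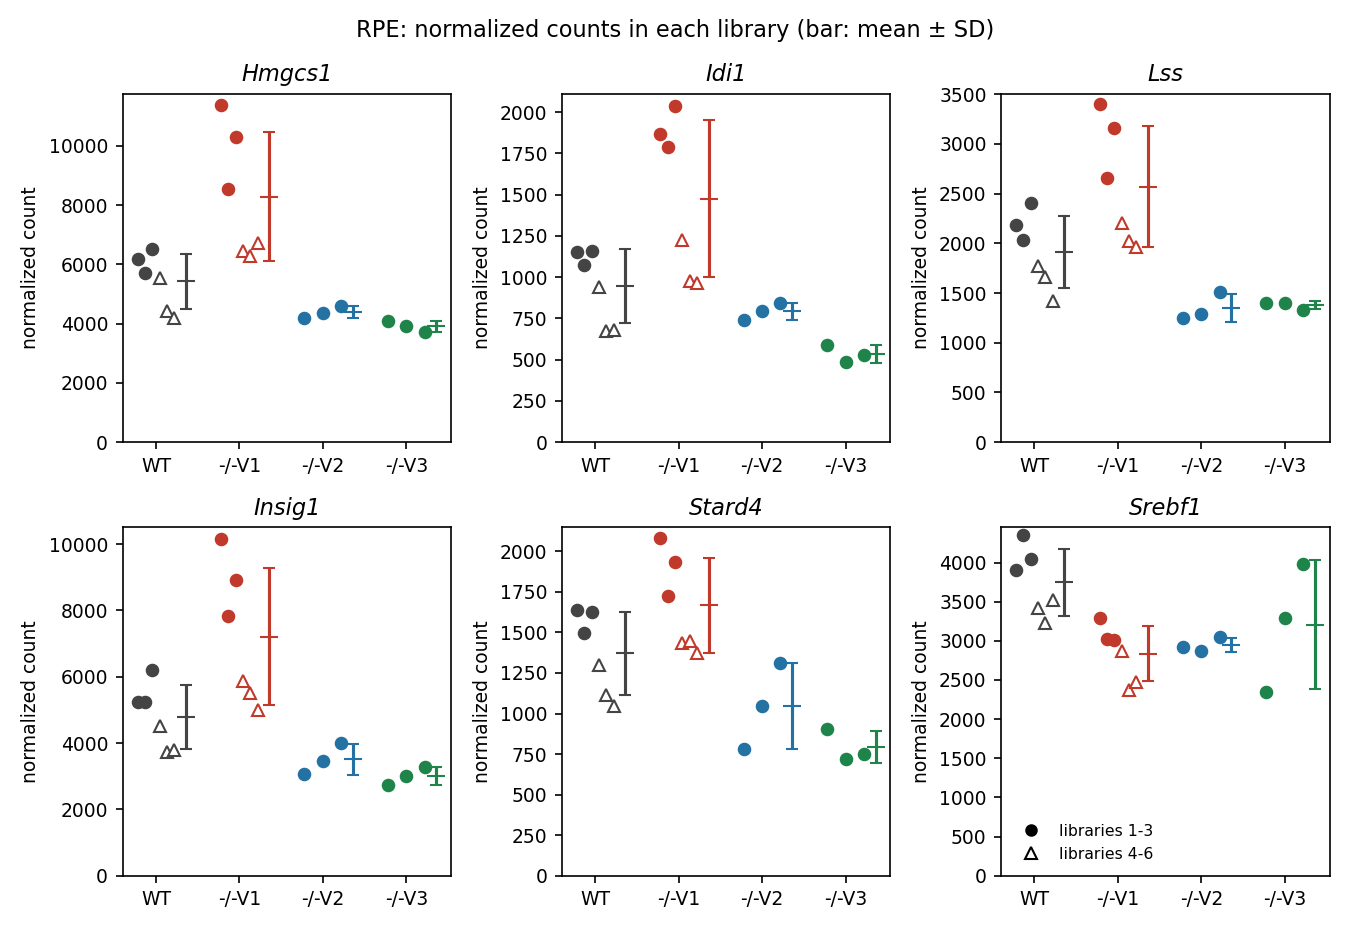
Normalized counts of Hmgcs1, Idi1, Lss, Insig1, Stard4 and Srebf1 in each RPE library, by genotype, on axes that start at 0. Filled circles are libraries numbered 1 to 3 and open triangles those numbered 4 to 6, with the mean ± SD beside them. In the first 5 genes every Mertk-/-V1 library is above every Mertk-/-V2 and Mertk-/-V3 library, and in each of WT and Mertk-/-V1 libraries 1 to 3 are above libraries 4 to 6. Srebf1 is lower in Mertk-/-V1 than in WT.

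The same separation was seen in 5 further genes that missed the adjusted threshold. All 6 Mertk-/-V1 libraries were above the 6 Mertk-/-V2 and Mertk-/-V3 libraries for 10 of the 27 genes, a pattern held by 0.34% of the genes tested. Beside the 5 named above these were Fdps, Fdft1, Cyp51, Msmo1 and Mvd. Cyp51, the lanosterol demethylase gene, read 2752 to 5384 in Mertk-/-V1 (median 4009.6), 1950, 2125 and 2585 in Mertk-/-V2 and 1803, 1511 and 1485 in Mertk-/-V3, a log2 difference of 1.06 ± 0.21 (SE, limma adjusted p = 0.054). Mvd, the last enzyme before isopentenyl pyrophosphate, read 732 to 1606 in Mertk-/-V1 (median 1193), 454, 585 and 716 in Mertk-/-V2 and 416, 465 and 511 in Mertk-/-V3, a log2 difference of 1.11 ± 0.24 (SE, limma adjusted p = 0.095).

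Msmo1, which removes the methyl groups at the fourth carbon of the sterol ring, read 4324 to 9179 in Mertk-/-V1 (median 7144), 4272, 3849 and 4214 in Mertk-/-V2 and 2349, 2942 and 3426 in Mertk-/-V3. Fdft1 read 4301 to 8066 in Mertk-/-V1 (median 6271), 4037, 3835 and 4186 in Mertk-/-V2 and 2630, 2877 and 3133 in Mertk-/-V3. Fdps was low, at 112 to 217 in Mertk-/-V1, 56.4, 78.1 and 93.8 in Mertk-/-V2 and 84.8, 86.0 and 77.1 in Mertk-/-V3. In all 3 genes the gap between the lowest Mertk-/-V1 library and the highest of the others was small beside the range within Mertk-/-V1. Sqle, the squalene epoxidase gene and a rate-limiting step, overlapped, with 4032 to 8003 in Mertk-/-V1 (median 6041), 3887, 4020 and 4621 in Mertk-/-V2 and 2852, 2919 and 3534 in Mertk-/-V3 (log2 difference 0.67 ± 0.17, SE, limma adjusted p = 0.24).

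Apart from Insig1, the genes that encode the SREBPs and their regulators differed less than the 5 called genes. Srebf2 had a log2 difference of 0.37 ± 0.11 (SE, limma adjusted p = 0.36), Insig2 0.08 ± 0.12 (adjusted p = 0.91), Srebf1 -0.11 ± 0.12 (adjusted p = 0.82) and Scap -0.17 ± 0.12 (adjusted p = 0.67). Srebf1 and Scap were the 2 of the 27 with a difference below 0. Srebf2 read 5304 to 8127 in Mertk-/-V1 (median 6948), 5144, 5316 and 5678 in Mertk-/-V2 and 5169, 4599 and 5512 in Mertk-/-V3, so the Mertk-/-V1 range began within that of the others. The remaining 12 genes, among them Dhcr7, Nsdhl and Hsd17b7 of the late pathway, had differences between 0.03 for Ggps1, which makes the geranylgeranyl group of prenylated proteins, and 0.82 for Hsd17b7, and none passed the adjusted threshold.

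At an unadjusted p under 0.05, 21 of the 27 genes were higher and 0 lower. The number called depended on the setting: 24 with the replicate number as a block, 13 with DESeq2, 0 when only the 3 knockouts were fitted (the 5 genes at limma adjusted p of 0.051 to 0.082), and 2 to 7 when a library was left out, with 2 or 3 without any one of Mertk-/-V1 libraries 1, 2 and 3, Mertk-/-V2 libraries 1 and 2 and Mertk-/-V3 libraries 2 and 3. Mertk-/-V2 and Mertk-/-V3 have numbers 1 to 3 only, so the block set them mainly against Mertk-/-V1 libraries 1 to 3, the higher ones. Same-numbered libraries of Mertk-/-V1 and these knockouts correlated from -0.58 to 0.73, so the count of 24 does not rest on a shown pairing. Against Mertk-/-V2 alone 0 genes were called, and against Mertk-/-V3 alone 4 (Hmgcs1, Idi1, Insig1 and Stard4). No share of all genes stands beside the counts in this paragraph, so they show only how the number of members changed with the setting.

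**Figure D3:**
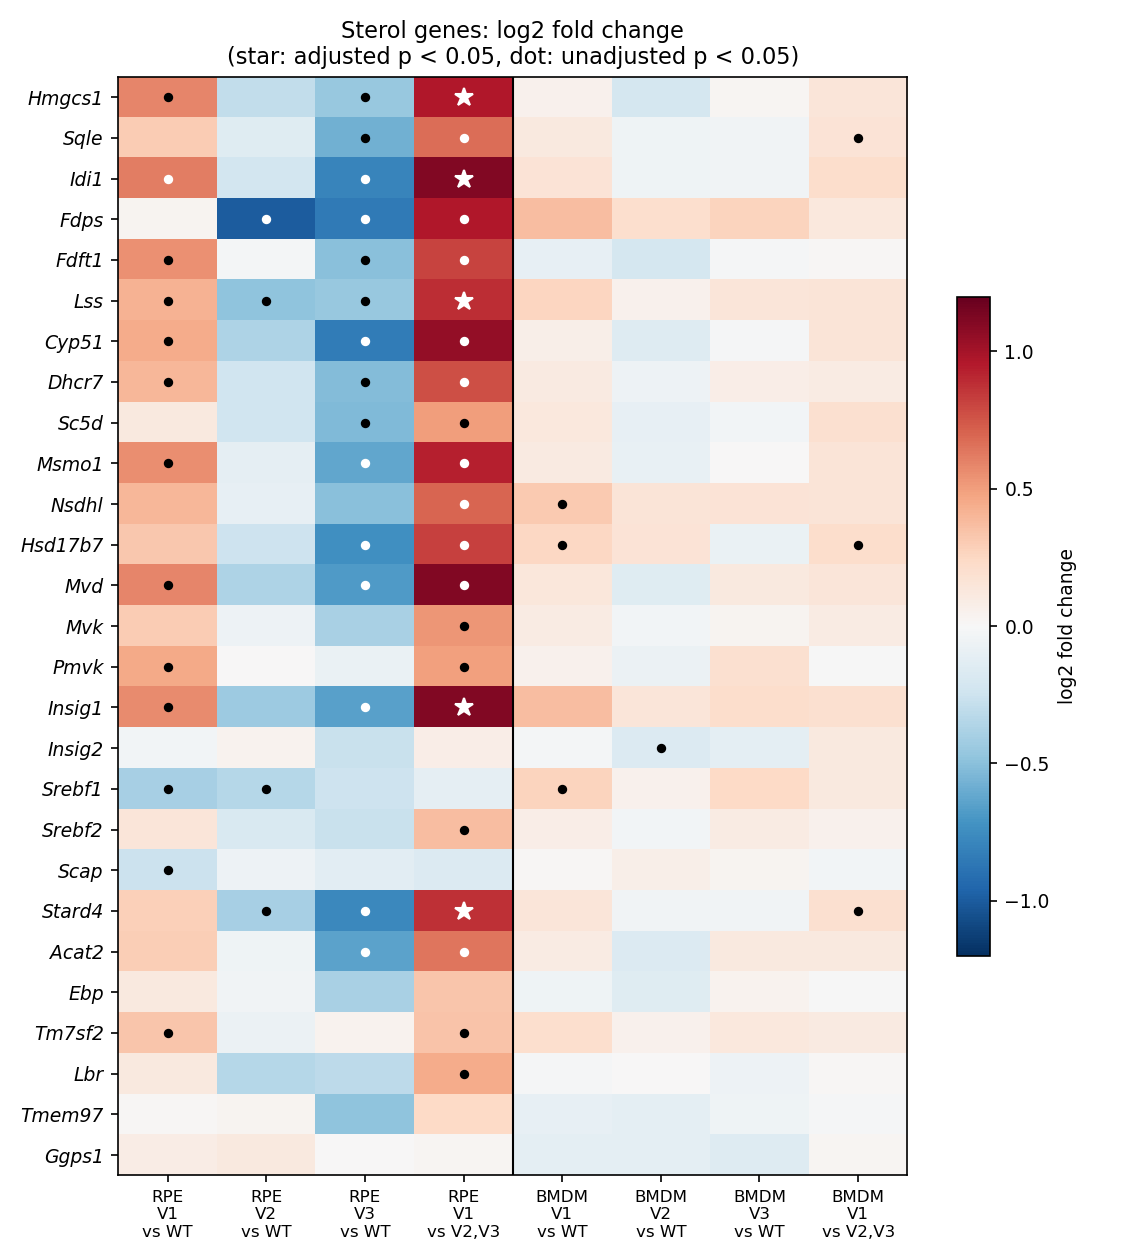
Log2 fold change of the 27 sterol genes (colour) in 4 comparisons in RPE and 4 in BMDMs. Stars mark an adjusted p under 0.05 and dots an unadjusted p under 0.05 (limma). The 5 stars are Hmgcs1, Idi1, Lss, Insig1 and Stard4 in the RPE column that sets Mertk-/-V1 against the mean of the other knockouts, and the BMDM columns hold none.

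Set against B6 WT, the RPE of the knockouts lay on either side of it. In Mertk-/-V1 the log2 fold change was above 0 in 24 of the 27 genes, with a median of 0.31 (0.02 over all genes). The highest were Idi1 at 0.61 ± 0.20, Hmgcs1 at 0.59 ± 0.15, Mvd at 0.59 ± 0.24 and Insig1 at 0.57 ± 0.17 (SE). None of the 27 passed the adjusted threshold, which 0.388% of all genes did. At an unadjusted p of 0.05 there were 13, of which 11 were higher and 2, Srebf1 and Scap, lower. The share of all genes at this unadjusted threshold is not given. DESeq2 called Hmgcs1 and edgeR 0 of the 27. Sqle was at 0.30 ± 0.17, Srebf2 at 0.15 ± 0.11, Insig2 at -0.04 ± 0.12 and Scap at -0.26 ± 0.12 (SE). No sterol gene had all 6 Mertk-/-V1 libraries above all 6 B6 WT libraries, a pattern held by 0.568% of genes.

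The RPE libraries numbered 1 to 3 and 4 to 6 stood apart in both genotypes. Their same-numbered B6 WT and Mertk-/-V1 libraries deviated together (r = 0.16 to 0.83), but some differently numbered libraries of the same set did so as closely. B6 WT library 1 correlated with Mertk-/-V1 libraries 1, 2 and 3 at 0.74, 0.77 and 0.80, and B6 WT library 5 with Mertk-/-V1 libraries 5 and 6 at 0.83 and 0.85. Library 4 did not follow libraries 5 and 6. In B6 WT it correlated with Mertk-/-V1 libraries 5 and 6 at -0.24 and -0.19. In Mertk-/-V1 it correlated with B6 WT libraries 5 and 6 at -0.29 and -0.21. The number and the set cannot be told apart as the source of this pairing. With the replicate number as a block, 11 of the 27 genes were called in Mertk-/-V1 against B6 WT, against 0.537% of all genes. The 10 that rose were Hmgcs1 (log2 0.59, limma adjusted p = 0.034), Idi1 (0.61, 0.015), Fdft1 (0.55, 0.015), Lss (0.41, 0.038), Cyp51 (0.45, 0.034), Dhcr7 (0.40, 0.037), Msmo1 (0.56, 0.017), Nsdhl (0.40, 0.028), Mvd (0.59, 0.017) and Insig1 (0.57, 0.033), and Srebf1 fell by 0.40 (0.044). With only the set of numbers (1 to 3 or 4 to 6) as a term, 7 were called (Hmgcs1, Idi1, Fdft1, Lss, Mvd and Insig1 higher, Srebf1 lower), against 0.702% of all genes.

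Within each set of numbers the median log2 fold change of the 27 genes in Mertk-/-V1 was above 0, at 0.38 in libraries 1 to 3 and 0.28 in libraries 4 to 6. Among libraries 1 to 3, Hmgcs1 read 11378, 8540 and 10304 in Mertk-/-V1 and 6162, 5722 and 6511 in B6 WT, and Insig1 read 10149, 7848 and 8912 against 5241, 5246 and 6208. Among libraries 4 to 6, Hmgcs1 read 6446, 6279 and 6717 against 5543, 4428 and 4191, and Insig1 5875, 5507 and 4985 against 4518, 3743 and 3778. In both sets the groups did not overlap for these genes. The 3 Mertk-/-V1 libraries lay above the 3 B6 WT libraries for 18 of the 27 genes in libraries 1 to 3 (6.42% of all genes) and for 8 in libraries 4 to 6 (5.77%), the 8 being Hmgcs1, Idi1, Fdft1, Lss, Mvd, Pmvk, Insig1 and Stard4. Fitted alone, libraries 1 to 3 called 3 genes (Idi1, Fdft1 and Msmo1) and libraries 4 to 6 called 0. The interaction of Mertk-/-V1 with the set called 0 genes (limma; 0 of the 27 and 1249 of 18795 genes at an unadjusted p under 0.05).

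Markers of other cells moved with genotype as well. In both sets the summed RPE markers of every Mertk-/-V1 library were below those of every B6 WT library, with 476084 to 623210 against 668904 to 862323 in libraries 1 to 3 and 190483 to 423142 against 480037 to 643236 in libraries 4 to 6. The summed endothelial markers of libraries 1 to 3 were 2987 to 3578 in Mertk-/-V1 and 1666 to 2622 in B6 WT, and in libraries 4 to 6 they overlapped. The summed fibroblast markers had a median of 29178 in Mertk-/-V1 (23242 to 44261) and 22914 in B6 WT (18835 to 27878). The part of these cells in the genotype values was not tested.

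Srebf1 went the other way from the enzymes. It read 2368 to 3292 normalized counts in Mertk-/-V1 RPE (median 2937) and 3228 to 4354 in B6 WT (median 3712), so that only 1 Mertk-/-V1 library reached the B6 WT range. Mertk-/-V2 read 2923, 2874 and 3048, below every B6 WT library, and Mertk-/-V3 2347, 3291 and 3984, within and below it. The log2 fold changes were -0.40 ± 0.12, -0.34 ± 0.14 and -0.25 ± 0.14 (SE; limma adjusted p = 0.27, 0.89 and 0.48).

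In Mertk-/-V3 RPE most sterol genes had values below B6 WT. The log2 fold change against B6 WT was below 0 in 25 of the 27 genes, with a median of -0.50 (-0.01 over all genes), and 15 passed an unadjusted p of 0.05, all lower. The share of all genes at that unadjusted threshold is not given here. None passed the adjusted threshold in limma, edgeR or DESeq2, and in limma 0.069% of all genes did. All 3 Mertk-/-V3 libraries lay below all 6 B6 WT libraries for 9 of the 27 genes (Hmgcs1, Idi1, Fdps, Lss, Cyp51, Hsd17b7, Insig1, Stard4 and Acat2), against 1.57% of all genes. Fdps, Cyp51, Idi1 and Stard4 were furthest from B6 WT, at -0.85 ± 0.24, -0.84 ± 0.26, -0.79 ± 0.25 and -0.77 ± 0.19 (SE; limma adjusted p = 0.44, 0.45, 0.45 and 0.33).

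In Mertk-/-V2 RPE the median log2 fold change was -0.18 (0.02 over all genes), and 0 of the 27 genes passed the adjusted threshold, which 0.069% of all genes did. Fdps, Lss, Srebf1 and Stard4 passed an unadjusted p of 0.05, all lower, at -0.998 ± 0.24, -0.49 ± 0.18, -0.34 ± 0.14 and -0.40 ± 0.19 (SE; limma adjusted p = 0.36, 0.80, 0.89 and 0.91). DESeq2 called Fdps and edgeR 0 of the 27. Mertk-/-V2 and Mertk-/-V3 were sequenced only as libraries 1 to 3. Against B6 WT libraries 1 to 3 the median was -0.43 in Mertk-/-V2 and -0.81 in Mertk-/-V3, and against B6 WT libraries 4 to 6 it was 0.07 and -0.22, with 0 genes called in each. At an unadjusted p under 0.05 there were 13 and 23 genes, then 1 and 2, again without a share of all genes beside them. The 3 comparisons with B6 WT share their B6 WT libraries.

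The libraries numbered 4 to 6 read lower for nearly the whole pathway. Over B6 WT and Mertk-/-V1 together, 24 of the 27 genes were lower in libraries 4 to 6 than in 1 to 3 (limma, genotype as a term), against 21.8% of all genes, with a median log2 difference of -0.59 (-0.01 over all genes). Mvd (-0.86), Cyp51 and Hsd17b7 (-0.74 each), Nsdhl (-0.74), Idi1 (-0.72) and Msmo1 (-0.71) differed most. Fdft1, Acat2, Mvk, Sc5d, Sqle, Insig1, Ebp, Tmem97 and Dhcr7 lay between -0.68 and -0.57, Hmgcs1, Lss, Lbr, Stard4 and Tm7sf2 between -0.51 and -0.40, and Srebf2, Insig2, Srebf1 and Scap between -0.37 and -0.25. Pmvk, Fdps and Ggps1 were not called, at -0.23, -0.23 and 0.16.

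Depth and the RNA of other cells moved with these sets. The libraries held 23417838 to 34124049 reads in libraries 1 to 3 and 14137666 to 20779930 in libraries 4 to 6 of B6 WT and Mertk-/-V1. The rod marker sums were 29962, 112269 and 92813 in B6 WT libraries 1 to 3 and 122418, 318321 and 274596 in 4 to 6. In Mertk-/-V1 they were 85950, 57556 and 65621 in libraries 1 to 3 and 127567, 823672 and 483676 in 4 to 6. Every library 4 to 6 held more rod RNA than every library 1 to 3 of its genotype. The summed endothelial markers were 1666 to 2622 and 2979 to 4948 in B6 WT, and 2987 to 3578 and 4592 to 6161 in Mertk-/-V1. The part of depth and of endothelial RNA in the result was not tested. In bulk RNA fewer RPE cells and less RNA per cell cannot be told apart.

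With the mean log2 value of the rod markers as a covariate the difference between the sets called 0 of the 27 genes (limma, 20 at an unadjusted p under 0.05, median -0.35). The share of all genes in this fit is not given here. Rod RNA was higher in every library 4 to 6 of a genotype than in its libraries 1 to 3, so this fit cannot tell rod RNA from the set. With the same covariate, 18 of the 27 were higher in Mertk-/-V1 than in the other knockouts, against 0.462% of all genes, and 11 were called against B6 WT (10 higher and Srebf1 lower), against 1.54% of all genes. Without the 3 libraries with the most rod RNA, 18 were higher in Mertk-/-V1 than in the other knockouts, against 2.9% of all genes, with a median of 0.88. Those left out include Mertk-/-V1 libraries 5 and 6, whose median log2 deviations from the B6 WT mean (-0.05 and -0.11) were the lowest of that genotype. The comparison among the knockouts also held more called genes with only Mertk-/-V1 libraries 1 to 3, where 15 were higher (median 1.03, 0.358% of all genes). Both choices were made after seeing the data. Both leave out low Mertk-/-V1 libraries, which raises the difference by construction, so these counts are no independent result. With only Mertk-/-V1 libraries 4 to 6 the median was 0.30 and 0 were called. At an unadjusted p under 0.05 there were 12, without a share of all genes beside them. These 3 libraries were above all 6 of the other knockouts for 10 genes (1.31% of all genes). They are the same genes that had all 6 Mertk-/-V1 libraries above them, so this count follows from that pattern and is no separate result.

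The median over the pathway placed each library. The median log2 deviation of the 27 genes from the B6 WT mean was 0.69, 0.50 and 0.59 in Mertk-/-V1 libraries 1 to 3 and 0.15, -0.05 and -0.11 in libraries 4 to 6. It was 0.28, 0.22 and 0.29 in B6 WT libraries 1 to 3 and 0.00, -0.35 and -0.42 in libraries 4 to 6. In Mertk-/-V2 it was -0.25, -0.22 and -0.07 and in Mertk-/-V3 -0.52, -0.55 and -0.45. All 6 Mertk-/-V1 libraries were thus above each Mertk-/-V3 library, while 1 of them, library 6, was below the highest Mertk-/-V2 library. Gene by gene, every Mertk-/-V3 library lay below every Mertk-/-V2 library for 13 of the 27, against 2400 of 18832 genes. The depth of the Mertk-/-V3 RPE libraries was 16476097 to 21573517 reads and that of Mertk-/-V2 29522487 to 33169749, and whether the set of a library and its genotype both take part in these values cannot be told apart for Mertk-/-V2 and Mertk-/-V3.

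**Figure D4:**
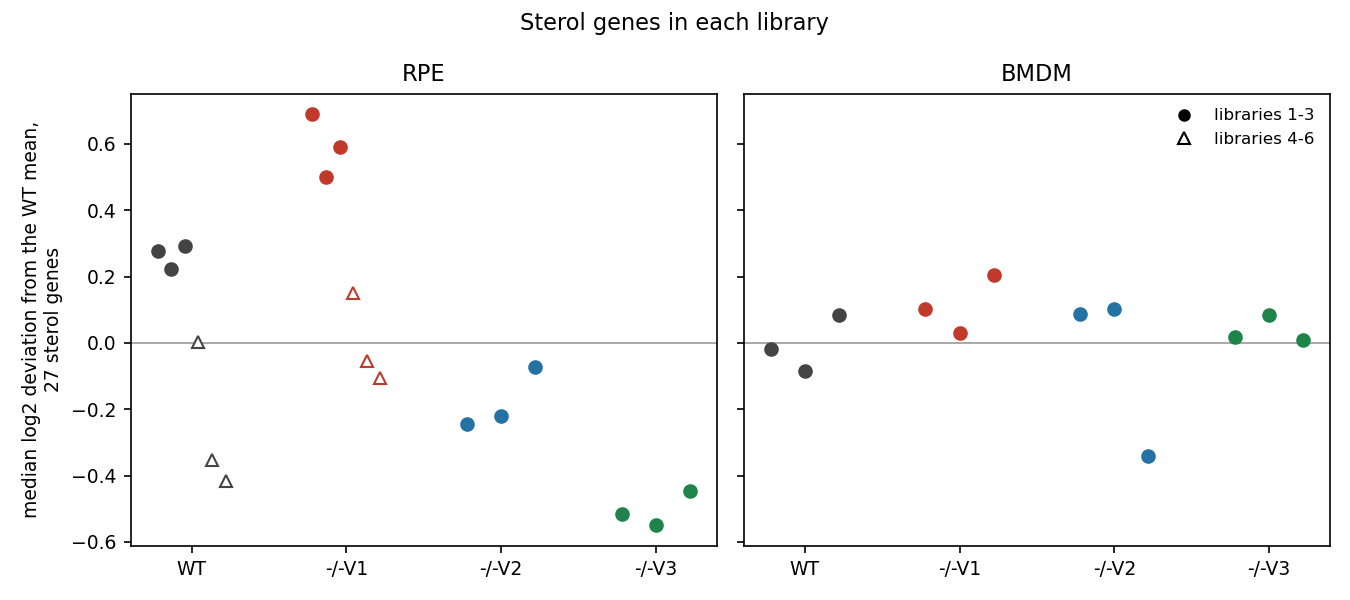
Median log2 deviation of the 27 sterol genes from the B6 WT mean of the tissue, 1 point per library, in RPE (left) and BMDMs (right). Filled circles are libraries 1 to 3 and open triangles libraries 4 to 6. Mertk-/-V1 RPE libraries 1 to 3 lie at 0.50 to 0.69 and Mertk-/-V3 RPE libraries at -0.55 to -0.45, and Mertk-/-V2 BMDM library 3 stands apart at -0.34.

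**Figure D5:**
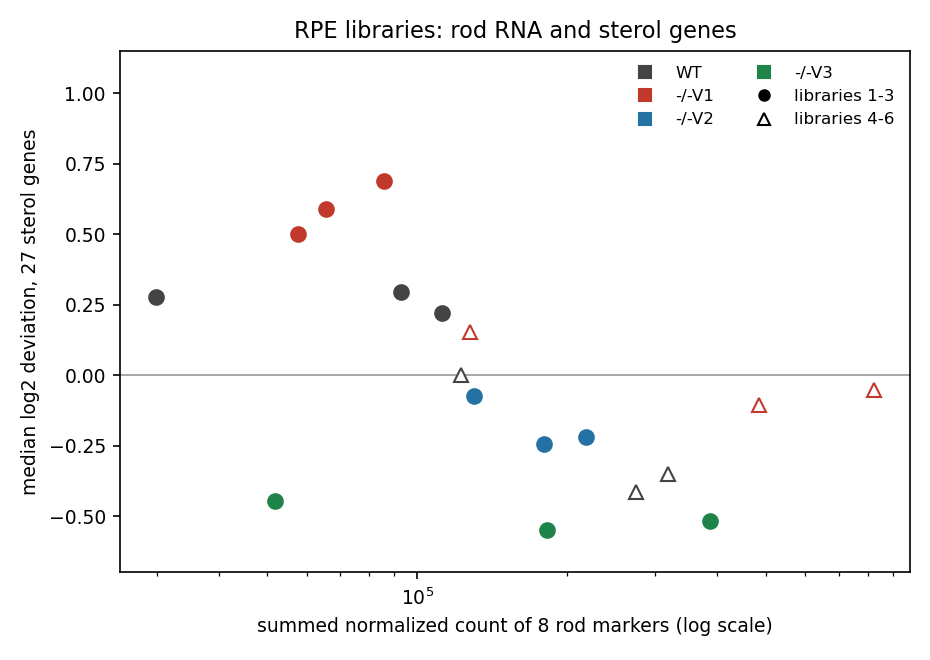
Summed normalized count of 8 rod markers (log axis) against the median log2 deviation of the 27 sterol genes in the 18 RPE libraries, coloured by genotype. Mertk-/-V1 libraries 5 and 6, with 823672 and 483676, lie at -0.05 and -0.11, above B6 WT libraries 5 and 6, with 318321 and 274596, at -0.35 and -0.42, and Mertk-/-V3 library 3, with 51878, lies at -0.45.

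In BMDMs no sterol gene was called among the genotypes. None of the 27 passed the adjusted threshold in any knockout (V1, V2, V3) set against B6 WT or in Mertk-/-V1 against the mean of the others (limma), while 7.07%, 4.61%, 1.17% and 0.991% of all genes did. At an unadjusted p under 0.05 there were 3, 1, 0 and 3, without a share of all genes beside them. On the recovered reads edgeR and DESeq2 also called 0 of the 27 in each. The medians over the 27 were 0.11, -0.05, 0.03 and 0.12 on the log2 scale, beside medians over all genes that were near 0.

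Hmgcs1 read 2737, 2669 and 3251 normalized counts in Mertk-/-V1 BMDMs and 2752, 2574 and 2985 in B6 WT, with a log2 fold change of 0.06 (95% interval -0.26 to 0.37). The groups overlapped. Insig1 read 7676, 6874 and 8121 in Mertk-/-V1 and 5550, 5190 and 6910 in B6 WT (0.37, -0.01 to 0.74). Sqle read 3764, 3690 and 4089 against 3471, 3390 and 3747 (0.12, -0.05 to 0.30). Srebf2, Insig2 and Scap were at 0.08 (-0.07 to 0.22), -0.02 (-0.17 to 0.12) and 0.01 (-0.10 to 0.13).

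Srebf1 read 4523, 4337 and 4797 in Mertk-/-V1 BMDMs, 4407, 4564 and 2987 in Mertk-/-V2, 4564, 4459 and 4434 in Mertk-/-V3 and 3653, 3595 and 4148 in B6 WT. The lowest Mertk-/-V2 library was below every B6 WT library and the other knockout libraries were above them. The log2 fold changes against B6 WT were 0.26 ± 0.12, 0.05 ± 0.12 and 0.24 ± 0.12 (SE; limma adjusted p = 0.20, 0.85 and 0.34), and none passed the threshold.

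A library of Mertk-/-V2 BMDMs stood apart. Library 3 read 1719 for Hmgcs1 against 2841 and 2770 in libraries 1 and 2, 4368 for Insig1 against 7939 and 7792, and 2987 for Srebf1 against 4407 and 4564, and 26 of the 27 genes were below the B6 WT mean in it. Its summed macrophage markers were 318005, the lowest of the 12 BMDM libraries (329616 to 365177 in the others), and what sets it apart was not tested. Without it, 5 genes were higher in Mertk-/-V2 than in B6 WT, against 4.46% of all genes: Lss, Nsdhl, Hsd17b7, Insig1 and Srebf1, by 0.32, 0.37, 0.29, 0.43 and 0.24. The same 5 were then also higher in Mertk-/-V1, against 6.82% of all genes, by 0.26, 0.31, 0.25, 0.37 and 0.26, and Srebf1 in Mertk-/-V3 by 0.24. These comparisons share the B6 WT libraries, and library 3 was left out after its low sterol values had been seen. Leaving it out raises the Mertk-/-V2 values of these genes by construction. It also narrows the spread that Mertk-/-V1 and Mertk-/-V3 are tested against, so these calls are no independent result.

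The difference between the tissues was tested directly on the reads of all 30 libraries (edgeR, tissue by genotype). It called 0 of the 27 genes for the V1, V2 and V3 alleles, against 0.158%, 0.0431% and 0.0192% of all genes. At an unadjusted p under 0.05 there were 3, 2 and 11, without a share of all genes beside them. For Mertk-/-V1 the 3 were Fdft1 and Hmgcs1, whose log2 fold change was larger in RPE by 0.67 and 0.57, and Srebf1, where it was lower by 0.64 (edgeR adjusted p = 0.62, 0.65 and 0.29). For Mertk-/-V3 the 11 were all lower in RPE, and the median over the 27 was -0.52 (-0.02 over all genes). With only RPE libraries 1 to 3, where B6 WT is at its highest, 21 of the 27 were called lower in Mertk-/-V3, against 5.12% of all genes. A difference between tissues was therefore not shown for any sterol gene in the full set of libraries.

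Genes beside the pathway were read as 3 lists. The fatty acid arm of SREBP targets (11 genes, among them Fasn, Scd1 and Elovl6) had 0 called genes in each of the 8 comparisons by genotype. Its median against B6 WT in the RPE was 0.06 (V1), -0.17 (V2) and -0.23 (V3), and 0.28 in Mertk-/-V1 against the other knockouts. In BMDMs all 11 were above 0 in Mertk-/-V1 and Mertk-/-V3, led by the stearoyl-CoA desaturase gene Scd1 at 1.47 ± 0.55 and 2.10 ± 0.55 (SE; limma adjusted p = 0.12 and 0.081). The SREBP processing genes (6) and the branches of the mevalonate pathway to ubiquinone, dolichol, prenylation and esterification (8) also had 0 called in these comparisons, with medians between -0.20 and 0.08. Between the RPE sets 0 of these genes were higher in libraries 4 to 6. At the same threshold 21.8% of all genes were lower there. Of the fatty acid genes 7 of 11 were lower, Fasn at -0.29, Aacs at -0.61, Scd2 at -0.43, Elovl6 at -0.28, Fads1 at -0.36, Fads2 at -0.33 and Me1 at -0.33 on the log2 scale. Among the processing genes Erlin1 was lower, at -0.63, and Erlin2, at -0.25. Of the branch genes 3 of 8 were lower, Nus1 at -0.34, Coq2 at -0.25 and Soat1 at -0.39. Lists this short give no firm share to set against the 21.8%.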

How the data were processed

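Polyadenylated RNA of 30 libraries (18 RPE, 12 BMDM) was read as 150 bp pairs, trimmed with btrim and aligned with STAR to GRCm38 by the authors; the read counter, annotation and versions were not given in the sources used here. The deposited values are a normalized signal, gene counts that the authors divided by DESeq2 size factors; whole reads were recovered for 100% of values. Identifiers were named from GENCODE M21 (55480 of 55573 matched). Genes with a mean of at least 10 were tested with limma 3.58.1 (R 4.3.3) on log2(value + 1), the 4 genotypes of a tissue in 1 model, with Benjamini-Hochberg adjustment over all genes. Fold changes are on that scale, which understates those of low genes. Tissue differences used edgeR 4.0.16 (TMM) on recovered reads, and DESeq2 1.42.0 was an alternative. Fits were tested on simulated data. Same-numbered RPE libraries of B6 WT and Mertk-/-V1 deviated together (r = 0.74, 0.43, 0.60, 0.16, 0.83 and 0.71, the difference between libraries 1 to 3 and 4 to 6 included), so their numbers were entered as a block. This comes from the data, since the labels do not say what the numbers mean. Differently numbered libraries of the same set correlated as highly, apart from pairs with library 4, where r was below 0. The members and lists were chosen with earlier results of these data known. Where no share of all genes is printed beside a count, the count describes the members only. Genes named were Mertk, each called member, and Srebf2, Srebf1, Insig1, Insig2, Scap, Hmgcs1 and Sqle. Each library came from its own animal by the study's methods. Depth limits low genes most, 3 reads being the floor. A result for a gene of the SREBP processing list is not reported here.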

Additional observations from a re-analysis of the deposited data

How the results depend on the processing

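Of 99 alternatives to the 12 counts of sterol genes called, 67 gave a count within 1.5 times the main one and 32 did not. For Mertk-/-V1 RPE against the other knockouts (5 called) these were 13 with DESeq2, 0 with only the knockouts fitted, 0 with the study's log2 fold threshold, 18 with the rod covariate and, chosen after seeing the data, 18 without the 3 rod-rich libraries, 15 and 0 with Mertk-/-V1 libraries 1 to 3 and 4 to 6, and 0 against Mertk-/-V2 alone. Leaving out a library gave 2 to 7. For Mertk-/-V1 against B6 WT RPE (0 called) they were 1 with quantile normalization, 1 with DESeq2, 11 with the rod covariate, 7 with the set term, 3 with libraries 1 to 3 and 1 without the rod-rich libraries, and leaving out a library gave 0 to 0. For Mertk-/-V2 RPE DESeq2 gave 1, and for Mertk-/-V3 RPE the rod covariate gave 3. Between the RPE sets (24 called) 0 remained with the fold threshold, within B6 WT, within Mertk-/-V1 or with the rod covariate, and leaving out a library gave 23 to 25. In BMDMs fitting only the groups compared gave 4 for Mertk-/-V1 and 1 for Mertk-/-V3. Leaving out Mertk-/-V2 library 3, chosen after seeing the data, gave 5 and 1, and for Mertk-/-V2 leaving out a library gave 0 to 5. With RPE libraries 1 to 3 the tissue difference called 1, 3 and 21 genes for Mertk-/-V1, Mertk-/-V2 and Mertk-/-V3. The other results of leaving out a library were all 0. Where the main count was 0, another 0 was taken as within 1.5 times it. For such a count the study's fold threshold could give only 0, so the 67 does not measure how stable the counts are. The causes were not tested.

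With the replicate number as a block the RPE calls were 10 for Mertk-/-V1 against B6 WT (11 with only those libraries fitted), 18 for Mertk-/-V2, 23 for Mertk-/-V3 and 24 for Mertk-/-V1 against the other knockouts, and 0 in each BMDM comparison. Outside the pairs of B6 WT with Mertk-/-V1 RPE the same-numbered libraries share only a number. The deviations of these other pairs correlated from -0.58 to 0.73 in RPE and from -0.45 to 0.47 over 18 BMDM pairs. Mertk-/-V2 and Mertk-/-V3 RPE have libraries 1 to 3 only, so the block sets them mainly against libraries 1 to 3 of B6 WT and Mertk-/-V1. The block counts in this paragraph have no share of all genes beside them, so they describe the members only.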
